A study of Mus musculus with 24 samples.

Results

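The livers of mice fed human food from 2 sources, a cafeteria and a fast food restaurant, are compared here gene by gene. The comparison takes 12 of the 24 liver arrays of the study: 6 from mice on the cafeteria diet and 6 from mice on the fast food diet. All animals were female NMR-1 mice, 8 weeks of age when the feeding began and raised until then on pellets. For the next 2 weeks the cafeteria group ate the cooked dishes that staff ate at a research institute, and the fast food group ate nothing but McDonald's food. The remaining 12 mice ate the fruit, vegetables and yogurt given to zoo chimpanzees or stayed on pellets. RNA was processed in 2 batches with 3 mice of every diet in each, and each mouse was hybridized to its own array. No litter is tied to a mouse by the labels, and neither the intake of single mice nor the make-up of single meals enters any value below.

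The liver handles a change of food mainly through sets of genes that are switched together. Sugar and insulin raise the genes of glycolysis and fatty acid synthesis through the transcription factors ChREBP and SREBP-1c. Fatty acids that reach the hepatocyte activate PPARA, which raises the genes of fatty acid oxidation in peroxisomes and mitochondria. A fall in cellular sterols activates SREBP-2, which raises the genes of cholesterol synthesis, and dietary protein raises the enzymes that break down amino acids.

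The array values were log2 expression values from 1.9 to 13, and every level and difference below is on that scale, where a difference of 1 is a doubling. A gene was counted as measured when 6 or more of the 24 arrays gave its probe set a value over 3.15, the middle value of the whole table, and 13384 genes were. The 12 arrays correlated with each other at 0.930 to 0.996. Their 90th percentile, a measure of the signal range, ran from 5.66 to 6.55 under cafeteria and from 5.85 to 6.61 under fast food. The lowest array of each diet, cafeteria batch 2 replicate 3 and fast food batch 2 replicate 2, lay in the same batch, and results that rest on them are given with and without them. The mean difference between the diets was -0.05 for the 90th percentile (exact permutation within batches, two-sided p = 0.66). It was 0.11 for the 3′ minus 5′ signal of the beta-actin control, a measure of RNA integrity (exact p = 0.1, adjusted over the 3 array measures 0.2925), and 0.05 for that of the Gapdh control (exact p = 0.195, adjusted 0.2925). The smallest p that the 400 arrangements allow is 0.005. Markers of hepatocytes were strong in every array: the mean of the 11 measured markers lay between 10.6 and 11.2 in the 12 livers.

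Only 1 gene passed the test between the diets, and it was higher in mice fed the cafeteria diet. This was Ang, which encodes angiogenin, a secreted ribonuclease known for inducing the growth of blood vessels. The called genes were 0.00747% of those tested, in all and among genes higher under cafeteria alone, and no gene was called lower (0%) by limma at an adjusted p of 0.05. At an unadjusted p of 0.05 the same fit held 684 genes, or 5.11% of those tested, with 272 higher (2.03%) and 412 lower (3.08%) under cafeteria. A threshold of 0.05 gives a share near 5.11% when no gene differs. In the same model, against the chimpanzee diet, 168 genes were called for cafeteria (1.26%) and 272 for fast food (2.03%). Against pellets, 643 genes were called for cafeteria (4.8%) and 455 for fast food (3.4%). These 4 comparisons share the cafeteria or fast food mice with the main comparison and with each other.

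Ang ran from 9.10 to 9.70 in the 6 cafeteria mice, with a median of 9.34, and from 8.02 to 8.81 in the 6 fast food mice, with a median of 8.76. Every cafeteria mouse lay above every fast food mouse, within each batch and across both. The difference was 0.79 ± 0.125 (SE, n = 6 mice per diet), a fold of 1.72, with an adjusted p of 0.0229. It was 0.71 in batch 1 and 0.86 in batch 2. The mean was 9.12 on the chimpanzee diet and 8.49 on pellets, so by the means the cafeteria and chimpanzee groups were the upper pair and fast food and pellet the lower. The other probe sets that the annotation gives to Ang differed in the same direction, by 0.67 and 0.56, and passed no test alone. Mouse angiogenin belongs to a family of paralogs, so part of its signal may come from related transcripts. The call depended on the spread estimated from all 24 mice: with the 12 mice of these diets alone the adjusted p was 0.188. It was also lost with the beta-actin control as a covariate (0.71, adjusted p = 0.135), with the mean of the gene's probe sets (0.67, 0.311) and with its most variable probe set (0.56, 0.909). Leaving out 1 mouse moved the adjusted p between 0.00912 and 0.0923, above 0.05 without any 1 of the 3 fast food mice of batch 1, fast food batch 2 replicate 3, or cafeteria batch 1 replicate 2 or 3. Without the pair of arrays of low signal range it was 0.0407.

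Rnase4, a ribonuclease of the same family, was looked up after the values were seen because RefSeq lists it at the same start site as Ang. In cafeteria livers Rnase4 ran from 11.10 to 11.51 (median 11.18), and in fast food livers from 10.24 to 11.20 (median 10.78). The groups overlapped in batch 1 and were apart in batch 2. The difference was 0.49 ± 0.125 with an adjusted p of 0.408, by batch 0.38 and 0.60, and it did not pass. The chimpanzee and pellet means of Rnase4 were 11.21 and 10.82. By the means cafeteria and chimpanzee were the upper pair, as for Ang, while fast food and pellet stood in the opposite order. The 250 bases before the shared start are shown because they stand before both transcripts. The window lies on the plus strand of GRCm38.p6 at chr14:51090827-51091076 and is written 5′ to 3′.
Ang and Rnase4: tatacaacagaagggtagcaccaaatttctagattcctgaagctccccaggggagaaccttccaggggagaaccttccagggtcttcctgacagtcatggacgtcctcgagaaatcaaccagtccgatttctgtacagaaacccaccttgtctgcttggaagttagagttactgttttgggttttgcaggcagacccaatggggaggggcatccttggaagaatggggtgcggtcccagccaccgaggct
None of the 4 motifs searched in promoters, which are given with the lipid genes below, occurred in this window, so no letter is in capitals. A second Rnase4 start is listed 4923 bases downstream.

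**Figure D1:**
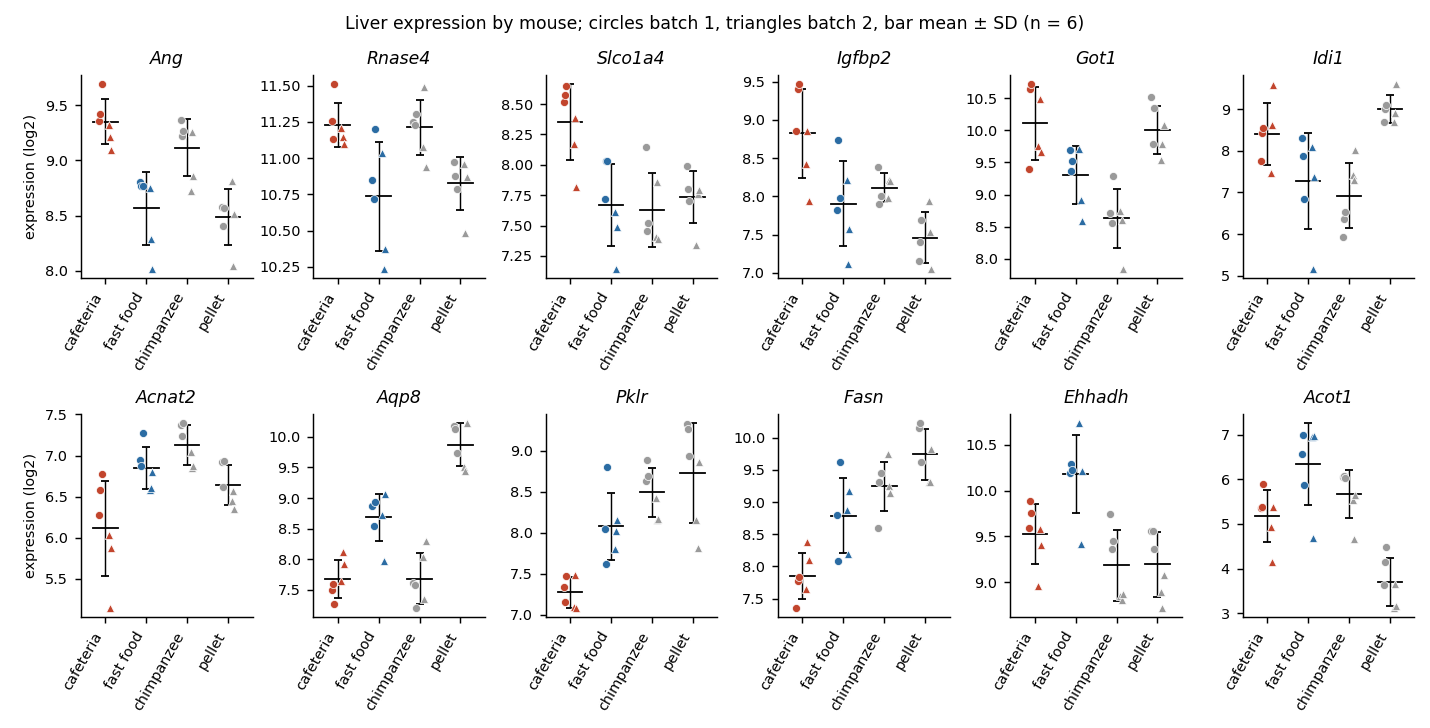
Log2 expression of 12 genes (y axes) in single mice of the cafeteria, fast food, chimpanzee and pellet diets (x axes). Circles are batch 1 and triangles batch 2, and bars give the mean ± SD of 6 mice. Ang and Pklr are the panels in which no cafeteria mouse overlaps any fast food mouse.

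The next genes by p fell short of the threshold. Among genes with a difference of at least 0.5 and the same sign in both batches, clone names left out, the 10 of smallest p in each direction are given. Ang is counted among them, and the others are values that did not pass. The clone name left out was C730036E19Rik, with -1.04 ± 0.215 and an adjusted p of 0.163. In the higher direction came Slco1a4, a hepatocyte transporter that takes up bile acids and other organic anions. Slco1a4 ran from 7.82 to 8.65 (median 8.45) under cafeteria and from 7.15 to 8.03 (median 7.67) under fast food. The diets were apart within each batch, and 1 cafeteria mouse of batch 2 lay below the top of the fast food range. The difference was 0.69 ± 0.133 with an adjusted p of 0.115. Slco1a4 passed without the pair of arrays of low signal range (adjusted p = 0.0428), with cyclic loess (0.0292), quantile normalization (0.0310), the 90th percentile as a covariate (0.0156) and array weights (0.0168), and without cafeteria batch 2 replicate 3 alone (0.0358). The chimpanzee and pellet means, 7.63 and 7.73, were near that of fast food, 7.67.

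Igfbp2, a binding protein for insulin-like growth factors, differed by 0.92 ± 0.222 (adjusted p = 0.314). Its cafeteria values were 7.94 to 9.47 (median 8.85) and its fast food values 7.12 to 8.74 (median 7.90), apart in batch 1 and overlapping in batch 2. Got1, the cytosolic aspartate aminotransferase, differed by 0.81 ± 0.225 (adjusted p = 0.519) and overlapped in both batches. Slc7a2, a transporter of arginine and lysine, differed by 0.65 and Apobec1, the enzyme that edits apolipoprotein B mRNA, by 0.59, and each was apart within both batches. Klf9, a zinc finger factor induced by glucocorticoids, differed by 0.54, Ttc39b, a tetratricopeptide repeat protein, by 0.57, the kinase Pim3 by 0.53 and Mmd2 by 0.53. Their adjusted p-values lay between 0.314 and 0.519, and Apobec1, Mmd2 and Ttc39b were low, with mean levels 1.52 to 1.96 above the measuring level in the lower diet. Ttc39b passed with cyclic loess (adjusted p = 0.0346) and the 90th percentile as a covariate (0.0148), and Igfbp2 and Mmd2 with array weights (0.0184 and 0.0213).

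In the lower direction the smallest p belonged to Acnat2, a peroxisomal enzyme that joins acyl groups from coenzyme A to amino acids. Acnat2 ran from 5.15 to 6.77 (median 6.16) under cafeteria and from 6.59 to 7.27 (median 6.84) under fast food. Within each batch every cafeteria mouse lay below every fast food mouse, while the ranges over both batches overlapped. The difference was -0.73 ± 0.131 with an adjusted p of 0.0679, by batch -0.49 and -0.97. Acnat2 passed with the 90th percentile as a covariate (adjusted p = 0.0156) and array weights (0.0168). It also passed without fast food batch 2 replicate 2 (0.0433), cafeteria batch 1 replicate 3 (0.0245) or cafeteria batch 2 replicate 2 (0.0393).

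Aqp8, a water channel of the hepatocyte, was the only gene called within a single batch. In batch 1 its cafeteria mice had 7.26 to 7.59 and its fast food mice 8.54 to 8.93, a difference of -1.33 (adjusted p = 0.00719 by limma on the 12 arrays of that batch). In batch 2 the ranges were 7.65 to 8.12 and 7.98 to 9.06, and the difference was -0.69. Over both batches the difference was -1.01 ± 0.198 with an adjusted p of 0.115, and 0.0280 without the pair of arrays of low signal range. It passed as well without fast food batch 2 replicate 2 alone (0.0229), with cyclic loess (0.0346), the 90th percentile as a covariate (0.0352) and array weights (0.0121). The pellet mean of Aqp8 was 9.87 and the chimpanzee mean 7.68, against 7.67 for cafeteria and 8.68 for fast food. No gene was called in batch 2 alone. There 215 of 13384 genes had an unadjusted p under 0.05 by limma (0.665% of all genes higher and 0.941% lower). In batch 1 there were 760 such genes (2.15% higher and 3.53% lower).

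Of the other genes of the lower direction, Pklr, Fasn and Ehhadh belong to lipid pathways described below. Ppp1r3b, a subunit that brings protein phosphatase 1 to glycogen, differed by -0.61 ± 0.138, and Fgf1, a growth factor, by -0.61 ± 0.138. Rcbtb2 differed by -0.69, the retinol saturase Retsat by -0.60, and Papss1, which makes the sulfate donor of sulfation, by -0.58. The 5 genes had adjusted p-values from 0.267 to 0.408. Rcbtb2 passed with array weights (0.0121) and without cafeteria batch 2 replicate 1 (0.0110), and Papss1 and Retsat without fast food batch 2 replicate 2 (0.0312 and 0.0347). Rcbtb2 and Papss1 were low, 1.25 and 0.99 above the measuring level in the lower diet. For Fgf1 the probe set used gave the largest of 3 differences, with -0.27 and -0.12 in the others.

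**Figure D2:**
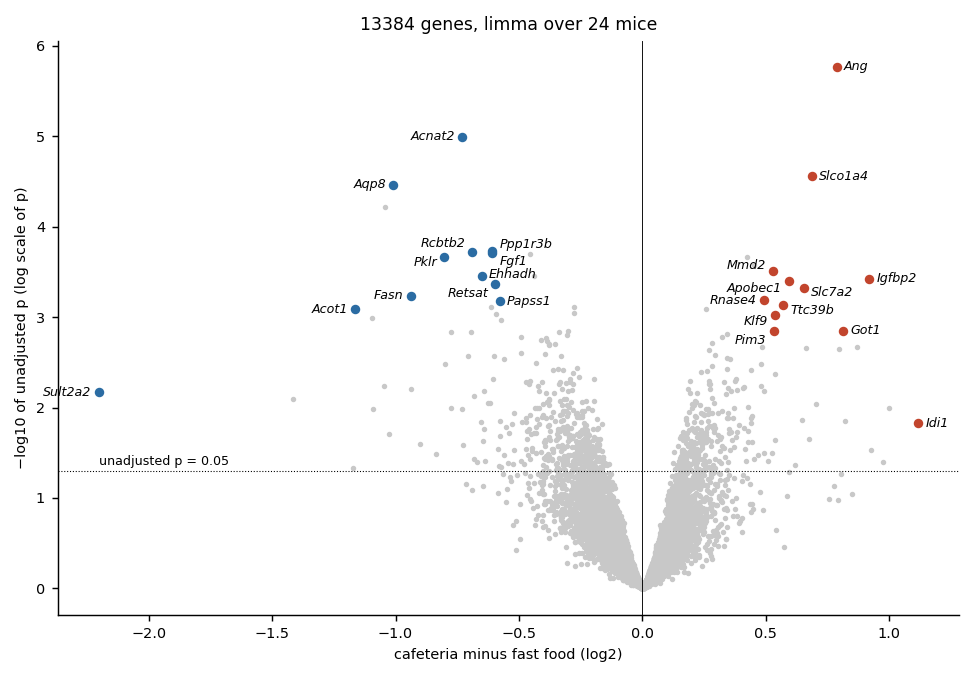
Difference between cafeteria and fast food (x axis, log2) against the negative log10 of the unadjusted p (y axis) for 13384 genes. Red and blue points are named genes higher and lower under cafeteria. Ang stands highest, and every other named gene is under the adjusted threshold.

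The batches share no mouse, so each gene has a separate difference in each. Across genes the differences of batch 1 and batch 2 had a Pearson r of 0.301, a description over genes that are not independent. The sign was the same for 7460 of 13384 genes, or 55.7%. Of the 760 genes at an unadjusted p under 0.05 in batch 1, 519 had the same sign in batch 2, or 68.3%. A diet by batch interaction was called for 0 genes by limma, with 95 of 13384 at an unadjusted p under 0.05. That share is below the 0.05 that the threshold gives when no gene differs. Without any model, 27 genes (0.202%) had all cafeteria mice above all fast food mice within both batches, and 18 (0.134%) had them below. If no gene differed, each of these orders would arise in 1 of the 400 arrangements of mice within batches. The share expected over both directions is then 0.005, and in the values as deposited the observed shares together do not exceed it. Lying apart within both batches therefore does not by itself set a gene apart from chance. The median difference over all genes was -0.01, 106 genes differed by at least 0.5, and 12 by at least 1.

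Genes of fatty acid and triglyceride synthesis were mostly lower under cafeteria than under fast food, although no single member passed. Of 30 listed genes all 30 were measured, 26 had a negative difference, and 12 were lower and 1 higher at an unadjusted p under 0.05, where 3.08% and 2.03% of all genes were. The median difference of the list was -0.22, beside -0.01 for all genes. It was -0.34 in batch 1 and -0.28 in batch 2. Without the pair of arrays of low signal range 25 were negative, 17 were lower at that p, beside 3.97% of all genes, and the median was -0.37. In that setting 1 member, Gpam, passed (-0.64, adjusted p = 0.0468). Gpam also passed without fast food batch 2 replicate 2 alone (-0.64, 0.0312).

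Pklr, the liver pyruvate kinase at the end of glycolysis, ran from 7.09 to 7.48 (median 7.25) under cafeteria and from 7.62 to 8.80 (median 8.04) under fast food. No cafeteria mouse reached the lowest fast food mouse. The difference was -0.80 ± 0.184 (adjusted p = 0.267), by batch -0.83 and -0.77, and the other probe sets gave -0.77 and -0.97. The chimpanzee and pellet means were higher still, 8.49 and 8.72.

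Fasn, the synthase that builds palmitate, ran from 7.36 to 8.38 (median 7.80) under cafeteria and from 8.09 to 9.62 (median 8.83) under fast food. The diets were apart in batch 1 and overlapped in batch 2. The difference was -0.94 ± 0.237 (adjusted p = 0.390), and the chimpanzee and pellet means were 9.25 and 9.74. For Pklr and Fasn the 4 means therefore stood in the same order, with cafeteria lowest, then fast food, chimpanzee and pellet.

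The other members lower at an unadjusted p under 0.05 act mostly between acetyl-CoA and the first acyl chains of triglyceride, and none passed. Dgat1 and Dgat2, which add the last acyl chain, and Lpin1 were not among them. Neither were listed genes within that stretch, the desaturases Scd1, Fads1 and Fads2 and the elongases Elovl2 and Elovl5. Gpat4, a glycerol-3-phosphate acyltransferase outside the list that is given below, was higher by 0.45. Acaca and Acacb, the acetyl-CoA carboxylases that supply malonyl-CoA, differed by -0.61 and -0.65. Mid1ip1, which assembles the carboxylase into its active polymer, differed by -0.62, and Me1, the malic enzyme that supplies NADPH, by -0.65. Elovl6, which lengthens palmitate, differed by -1.09. Gpam and Agpat2, which add the first acyl chains to glycerol 3-phosphate, differed by -0.49 and -0.33, and Tkfc, which feeds fructose carbons into the path, by -0.58. Srebf1, the gene of SREBP-1c, differed by -0.43.

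Pnpla3, a lipase-like protein of lipid droplets that SREBP-1c induces, had the largest difference of the list, -1.41 ± 0.489 (adjusted p = 0.861). Its cafeteria values were 3.23 to 4.13 (median 3.75) and its fast food values 3.85 to 6.96 (median 5.03), so cafeteria livers lay near the measuring level and fast food livers varied widely. Lpin2, a phosphatidate phosphatase, was the member higher under cafeteria, by 0.35.

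**Figure D3:**
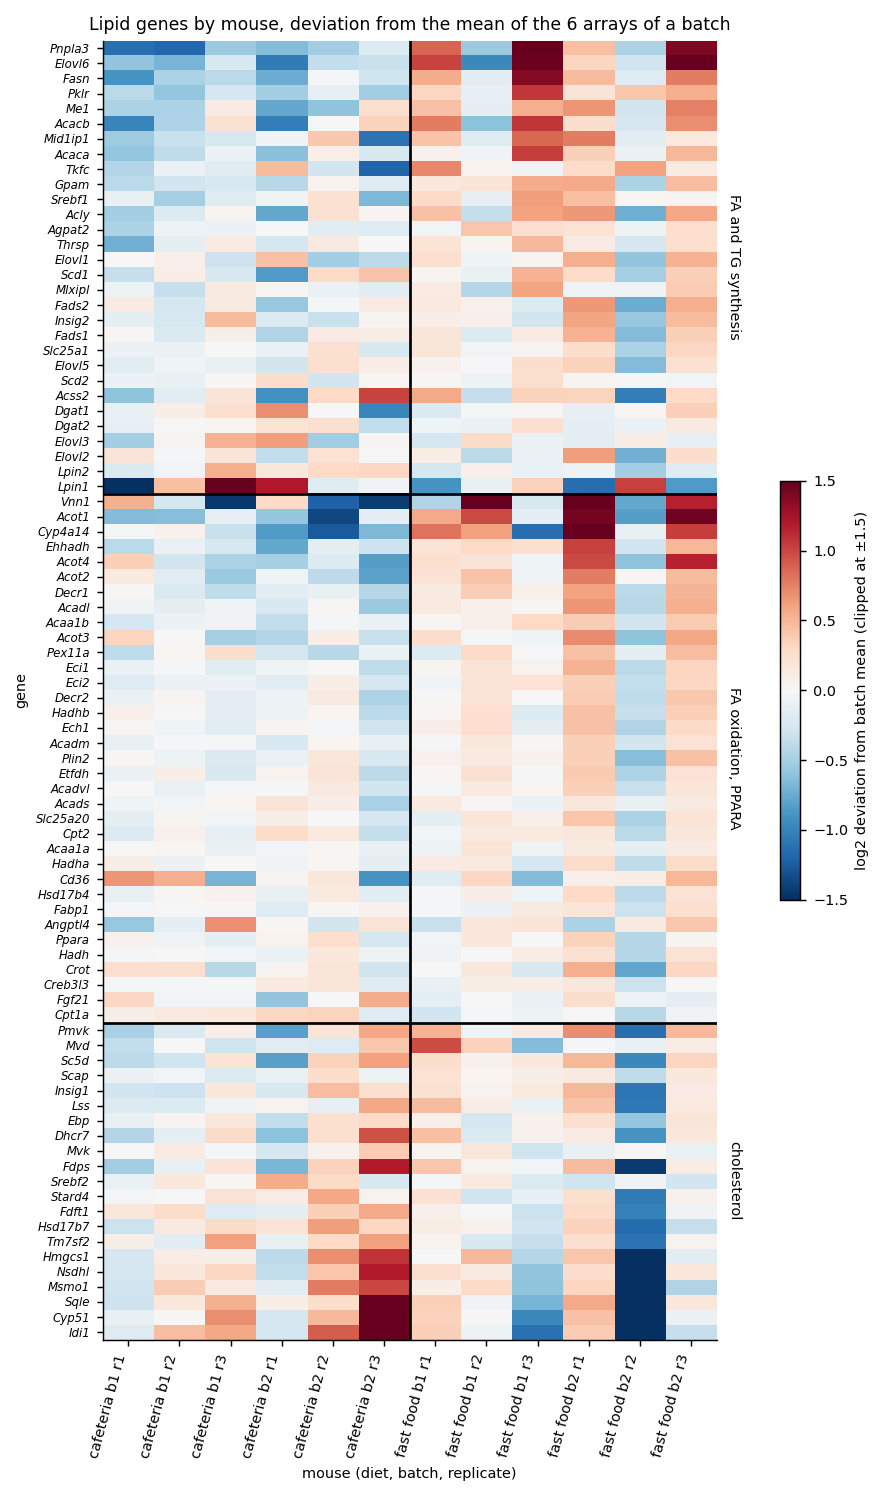
Heat map of lipid genes in the 12 mice: each row is a gene, each column a mouse, and colour is the log2 deviation from the mean of the 6 arrays of that batch. From top to bottom stand fatty acid and triglyceride (FA and TG) synthesis, fatty acid oxidation with PPARA targets, and cholesterol genes. The column of fast food batch 2 replicate 2 runs blue through most of the lower blocks, while cafeteria batch 2 replicate 3 is red for the cholesterol genes at the bottom.

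Genes of fatty acid oxidation and other targets of PPARA were also mostly lower under cafeteria. Of 40 listed genes 35 were measured and 32 had a negative difference. At an unadjusted p under 0.05, 11 members were lower and 1 higher, where 3.08% and 2.03% of all genes were. The median difference was -0.14, by batch -0.10 and -0.19, and none passed. Without the pair of arrays of low signal range 33 were negative, 16 were lower at that p, beside 3.97% of all genes, and the median was -0.20. With the beta-actin control as a covariate 28 were negative and 8 lower at that p, beside 2.65% of all genes.

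Ehhadh, the bifunctional enzyme of peroxisomal oxidation, ran from 8.96 to 9.89 (median 9.58) under cafeteria and from 9.41 to 10.74 (median 10.22) under fast food. The diets were apart in batch 1 and overlapped in batch 2, where fast food replicate 2 was the lowest fast food mouse. The difference was -0.65 ± 0.157 (adjusted p = 0.314), and the chimpanzee and pellet means were 9.18 and 9.19. Ehhadh passed with cyclic loess (adjusted p = 0.0346), quantile normalization (0.0291) and without fast food batch 2 replicate 2 (0.0439). By the means fast food was therefore the highest of the 4 diets.

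Acot1 and Acot2 encode the cytosolic and the mitochondrial acyl-CoA thioesterase, which release free fatty acids from coenzyme A. Acot1 ran from 4.14 to 5.89 (median 5.36) under cafeteria and from 4.68 to 7.0 (median 6.76) under fast food, overlapping in each batch. The difference was -1.16 ± 0.304 (adjusted p = 0.408), and -1.54 with an adjusted p of 0.0407 without the pair of arrays of low signal range. Acot1 also passed with array weights (0.0168) and without fast food batch 2 replicate 2 alone (0.0312). Acot2 differed by -0.61 ± 0.159 (adjusted p = 0.408) and Acot4 by -0.64. The Acot genes are close paralogs in 1 cluster, so their probe sets may not tell them fully apart.

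Cyp4a14, a fatty acid omega-hydroxylase and a sensitive PPARA target, ran from 7.26 to 9.37 under cafeteria and from 8.17 to 10.39 under fast food, with pellets at a mean of 3.26. Its difference was -1.03 ± 0.411 (adjusted p = 0.888), -0.19 in batch 1 and -1.86 in batch 2. Vnn1, a pantetheinase, differed by -1.17, and the peroxisomal genes Acaa1b and Pex11a by -0.30 and -0.28. Acaa1b passed with cyclic loess (adjusted p = 0.0346) and quantile normalization (0.0291). The oxidation enzymes Decr1, Acadl and Eci2 differed by -0.43, -0.34 and -0.23. Cpt1a, the carnitine palmitoyltransferase that admits fatty acids to mitochondria, went the other way, by 0.28 ± 0.103 (adjusted p = 0.861).

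Genes of cholesterol synthesis and uptake were mostly higher under cafeteria, and this rested on 2 arrays. Of 26 listed genes 21 were measured and 17 had a positive difference. There were 5 higher and 0 lower at an unadjusted p under 0.05, where 2.03% and 3.08% of all genes were. The list's median difference was 0.24, with 0.06 in batch 1 and 0.50 in batch 2. Without the pair of arrays of low signal range 11 of 21 were positive, and the median was 0.01. In that setting 1 was higher and 3 were lower at that p, where 2.76% and 3.97% of all genes were. Idi1, the isopentenyl diphosphate isomerase, ran from 7.45 to 9.57 (median 8.47) under cafeteria and from 5.17 to 8.32 (median 7.62) under fast food. The extremes were the same arrays, cafeteria batch 2 replicate 3 at the top and fast food batch 2 replicate 2 at the bottom. The difference of Idi1 was 1.12 ± 0.426 (adjusted p = 0.888) and 0.46 without them. Sqle, Cyp51 and Msmo1, enzymes of later steps, differed by 0.79, 0.80 and 0.62, and by 0.08, 0.22 and 0.24 without them. Tm7sf2, Hsd17b7 and Fdft1 differed by 0.44, 0.42 and 0.34, and by 0.19, 0.21 and 0.09 without them.

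**Figure D4:**
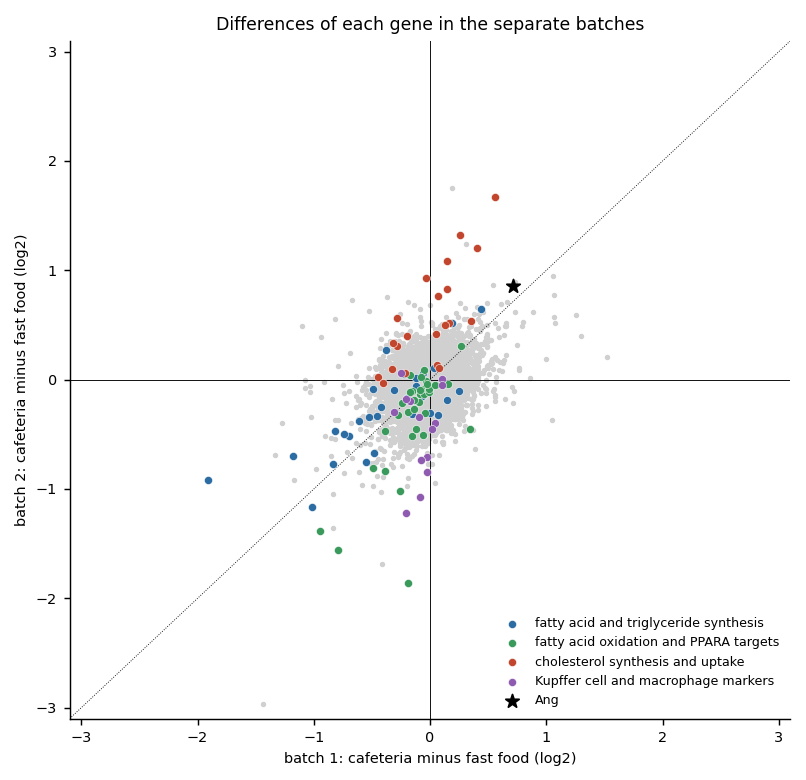
Difference between cafeteria and fast food in batch 1 (x axis, log2) against batch 2 (y axis, log2). Grey points are the genes tested, coloured points are members of 4 lists, and the dotted line marks equal differences. Fatty acid and triglyceride synthesis genes lie toward the lower left, while cholesterol genes lie mostly above the line, with list medians of 0.06 in batch 1 and 0.50 in batch 2.

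Promoters of the lipid genes were searched for the letters of 4 motifs on both strands, over 250 bases before and 50 after each RefSeq start. The counts are of promoters, so a gene with several listed starts, such as Dhcr7 or Lpin2, can count more than once. CCACG, searched as part of the endoplasmic reticulum stress element, was in 32.8% of all 32851 promoters. It was in 19 of 36 promoters of the fatty acid and triglyceride synthesis genes (52.8%), 14 of 32 of the fatty acid oxidation genes (43.8%) and 12 of 21 of the cholesterol genes (57.1%). CACGTG, the E-box, which can overlap CCACG, was in 7.15% of all promoters, and in 4 (11.1%), 3 (9.38%) and 6 (28.6%) of the same lists. The windows of the Scap starts, in the cholesterol list, overlap and hold the same CACGTG. TCACCCCAC, a sequence bound by SREBP, was in 0.551% of all promoters and in 1 of 21 promoters of the cholesterol genes. The PPARA element, taken as copies of AGGTCA spaced by 1 base, was in 0.0396% of all promoters. It was in 0 of 32 promoters of the fatty acid oxidation genes, which says only that these exact letters are not in the window. The promoters of Pklr and Hmgcs1 are shown because the first stands before the lipogenic gene whose diets did not overlap, and the second holds the SREBP sequence. Matches are in capitals, CCACG or its reverse complement in Pklr and TCACCCCAC in Hmgcs1. CCACG is a short run that other elements, such as the E-box, can also hold. The name of the search therefore does not identify the element that the Pklr capitals belong to. Both windows are on the plus strand of GRCm38.p6, at chr3:89136373-89136622 for the downstream of 2 Pklr starts and chr13:119690101-119690350 for Hmgcs1.
Pklr: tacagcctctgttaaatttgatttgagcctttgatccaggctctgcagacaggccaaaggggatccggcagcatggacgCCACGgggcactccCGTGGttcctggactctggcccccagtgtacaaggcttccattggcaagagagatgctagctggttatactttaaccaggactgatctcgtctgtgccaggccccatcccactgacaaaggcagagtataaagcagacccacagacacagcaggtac
Hmgcs1: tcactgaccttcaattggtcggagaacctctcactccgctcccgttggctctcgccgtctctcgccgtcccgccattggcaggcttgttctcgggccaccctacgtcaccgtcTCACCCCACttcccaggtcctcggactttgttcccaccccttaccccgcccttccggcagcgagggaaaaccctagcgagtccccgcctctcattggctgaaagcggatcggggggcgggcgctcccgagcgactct
In Pklr the matches stand at bases -171 to -167 and -157 to -153 from the start, facing each other, and in Hmgcs1 the match stands at -137 to -129. Hmgcs1, the cytosolic HMG-CoA synthase, was named after its promoter was read. Its difference was 0.45 ± 0.288 (adjusted p = 0.998), -0.03 in batch 1 and 0.93 in batch 2, and -0.01 without the pair of arrays of low signal range. A match of letters is a description and no evidence of binding.

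Genes of the urea cycle and of amino acid breakdown leaned higher under cafeteria by counts, with a median close to that of all genes. Of 58 listed genes 52 were measured, 34 had a positive difference, and the list's median was 0.06. Members at an unadjusted p under 0.05 were 7 higher and 1 lower, where 2.03% and 3.08% of all genes were. Gnmt, which disposes of surplus S-adenosylmethionine, ran from 11.63 to 12.04 (median 11.96) under cafeteria and from 11.32 to 11.76 (median 11.45) under fast food. The diets were apart in batch 2, and in batch 1 only cafeteria replicate 1 lay within the fast food range. The difference was 0.42 ± 0.097 (adjusted p = 0.267). The urea cycle enzyme Asl differed by 0.29 and Kynu, of tryptophan breakdown, by 0.43.

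Gluconeogenesis genes and their fasting regulators numbered 23 of 23 measured, with 14 positive and a median of 0.09. Of these, 3 were higher and 0 lower at an unadjusted p under 0.05, where 2.03% and 3.08% of all genes were. Pck1, which commits carbon to glucose, ran from 10.34 to 11.13 (median 10.53) under cafeteria and from 9.87 to 10.41 (median 10.24) under fast food, apart within each batch. Its difference was 0.41 ± 0.136 (adjusted p = 0.780). Ppargc1a, the coactivator that raises Pck1 in fasting, differed by 0.87 ± 0.251 (adjusted p = 0.562), 1.53 in batch 1 and 0.21 in batch 2, at a level 0.47 above the measuring level under fast food. Cebpa differed by 0.23 and Tat, the tyrosine aminotransferase, by 0.28.

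Among glycolysis, fructose and glycogen genes, 23 of 29 listed were measured, and the median was -0.01. Members at an unadjusted p under 0.05 were 5 lower and 1 higher, where 3.08% and 2.03% of all genes were. Those named are Pklr, Ppp1r3b and Tkfc, given above, and Aldoa, an aldolase, with 0.27. Of 27 bile acid genes, all measured, 17 were positive, and the median was 0.09. At that p 3 were higher and 1 lower, beside the same shares of all genes. Cyp7a1, the rate-limiting enzyme of bile acid synthesis, differed by 0.67 ± 0.276 (adjusted p = 0.895), with cafeteria values of 8.45 to 9.68 and fast food values of 7.51 to 8.79. The phospholipid exporter Abcb4 differed by 0.25. Acox2, the peroxisomal oxidase that shortens the bile acid side chain, differed by -0.41 ± 0.116 (adjusted p = 0.544) and was apart within each batch.

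For lipid droplets, lipolysis and lipoproteins, 31 of 34 listed genes were measured, and the median was 0.04. Of these, 1 was higher and 5 lower at an unadjusted p under 0.05, where 2.03% and 3.08% of all genes were. G0s2, an inhibitor of triglyceride lipase, differed by -0.77 ± 0.277 (adjusted p = 0.861), Mttp, which loads lipid onto apolipoprotein B, by -0.32, the cholesterol exporter Abca1 by -0.28 and the apolipoprotein Apoa5 by 0.26. Sult2a2, a sulfotransferase of steroids and bile acids with close paralogs, had the largest difference of the named genes, -2.20 ± 0.742 (adjusted p = 0.786). It ran from 3.05 to 9.52 in cafeteria livers and from 6.81 to 9.28 in fast food livers, and the highest single value was a cafeteria mouse. Socs2, a feedback inhibitor of growth hormone signalling, differed by 0.82 ± 0.310 (adjusted p = 0.884), while its list had 12 of 30 measured genes positive and a median of -0.06. Gpat4, a glycerol-3-phosphate acyltransferase outside the lists that was named after its values were seen, differed by 0.45 ± 0.106 (adjusted p = 0.295) and was apart within each batch.

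**Figure D5:**
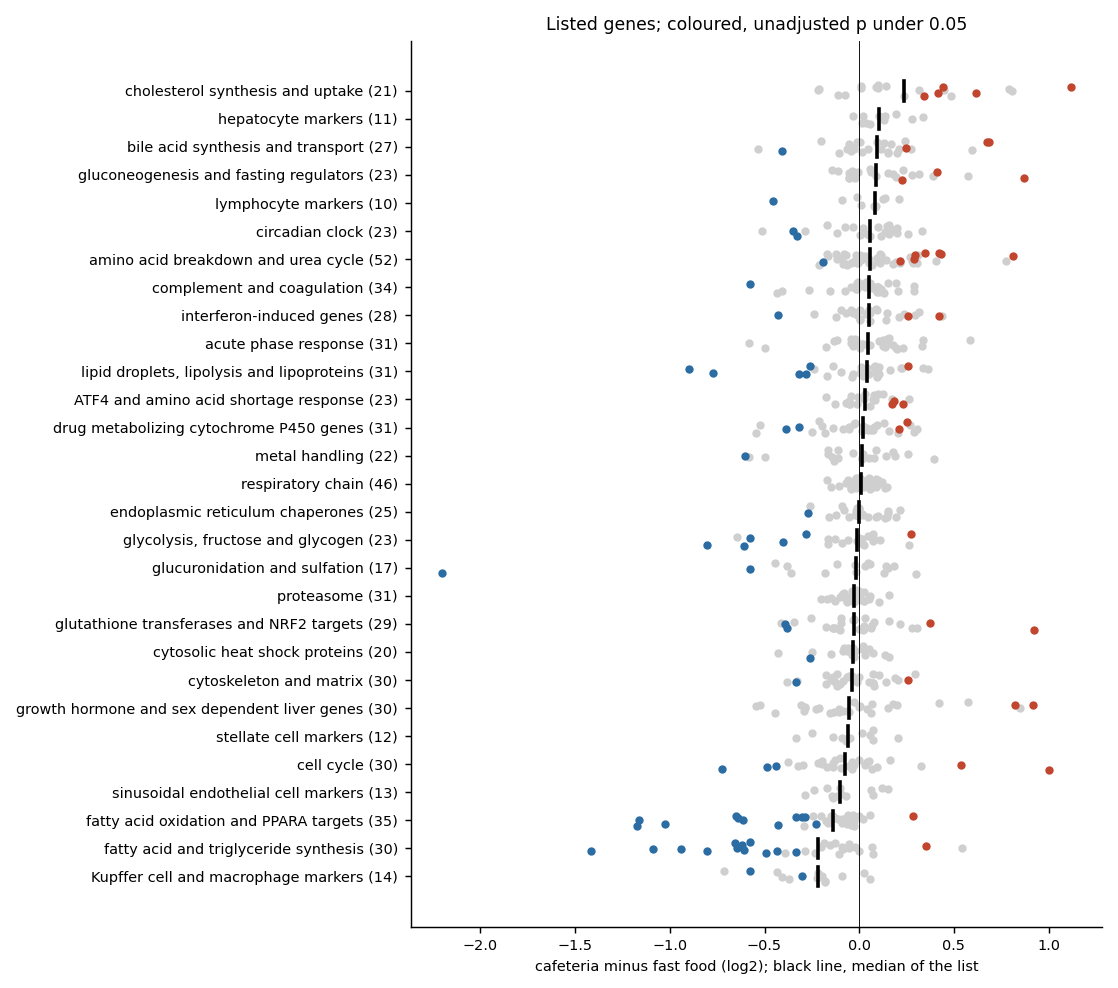
Differences between cafeteria and fast food (x axis, log2) of the members of the 29 lists with at least 10 measured genes, whose number is in brackets. Coloured points have an unadjusted p under 0.05, and the black line is the list's median. The medians run from -0.22 for macrophage markers and for fatty acid and triglyceride synthesis to 0.24 for cholesterol synthesis and uptake.

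Across all 35 lists 784 of 902 listed genes were measured, and no member was called in either direction. Markers of Kupffer cells and other macrophages leaned lower under cafeteria: 14 of 15 were measured and 12 had a negative difference. The median was -0.22, by batch -0.08 and -0.37, and 2 were lower at an unadjusted p under 0.05, where 3.08% of all genes were. The mean level of these markers ran from 4.61 to 6.19 in the cafeteria livers and from 5.38 to 6.37 in the fast food livers. C1qb, a complement subunit made by macrophages, differed by -0.58 ± 0.273 (adjusted p = 0.951), -0.09 in batch 1 and -1.07 in batch 2. Cd68 differed by -0.30 and Vsig4 by -0.71. In bulk tissue, fewer cells of a type and less RNA per cell cannot be told apart. Hepatocyte markers had 10 of 11 differences positive with a median of 0.11, and 6 of 11 positive with a median of 0.07 without the pair of arrays of low signal range. Markers of sinusoidal endothelial and stellate cells had medians of -0.10 and -0.06. Pancreas acinar markers had a median of -0.00 and mean levels of 3.82 to 4.36. The part of cell make-up in the lipid gene differences was not tested.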

How the data were processed

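The authors hybridized biotin-labelled RNA of each liver to an Affymetrix mouse genome array and deposited log2 values made with the robust multichip average (RMA), which corrects background, normalizes probes by quantiles and summarizes each probe set. Read depth does not apply to arrays. How far array quality and the number of arrays limit precision was not tested. Diets and batches came from the labels. Of 45101 deposited probe sets, 64 were controls. A symbol table gave 34945 probe sets 1 symbol, 932 several and 9160 none, and 34741 were updated to RefSeq by Entrez identifier. Probe sets with values over the table's median in 6 or more of the 24 arrays were kept, and the 1 of highest mean stood for its gene.

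Cafeteria minus fast food was tested with limma 3.58.1 (R 4.3.3) over all 24 mice with diet and batch as factors, after a test on simulated data, with Benjamini-Hochberg adjustment over 13384 genes and a threshold of 0.05. The 10 genes of smallest p in each direction with a difference of at least 0.5 and the same sign in both batches were named, leaving out clone names and predicted genes, and for each list up to 4 members of smallest p. Members at an unadjusted p under 0.05 in the 3 lipid lists were named after their values were seen. The comparison, the lists and the motifs were chosen with earlier results of these data known. Promoters were matched for 17 of the 20 named genes. Labels tie no mouse to a litter or cage. Alternatives changed the samples, batch term, pairing, normalization, filter, probe set and test. Array measures were compared with exact permutation tests within batches.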

Additional observations from a re-analysis of the deposited data

Results flagged for a closer look

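In 11 of 156 groups of 6 values, from named genes and array measures, 1 mouse stood far from the other 5 of its diet, where chance gives about 1 in 20 groups. Fast food batch 2 replicate 2 was that mouse in 9 of them, and it is an array of low signal range. It was lowest for Gpam at 8.30 (the next at 9.03), Tat at 10.1 (10.6), Abcb4 at 8.13 (8.63), Decr1 at 8.86 (9.61), Acot4 at 5.98 (7.22) and Acadl at 8.54 (9.22). It was also lowest for Eci2 at 8.51 (9.19), Fdft1 at 7.56 (8.40) and Sqle at 3.04 (5.42). Cafeteria batch 2 replicate 3, the other array of low signal range, was lowest for Cpt1a at 9.22 (9.73). Cafeteria batch 1 replicate 1 was lowest for Gnmt at 11.6 (11.9). What set these arrays apart was not tested.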

How the results depend on the processing

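The 1 called gene (1 higher, 0 lower) remained the count without a filter, with stricter filters, with every probe set as a feature and with trended or robust variance. The count was 0 with only the 12 mice, with batch left out, with the interaction averaged over batches, in batch 2 alone, with the beta-actin covariate, with the mean of a gene's probe sets and with the most variable probe set. Batch 1 alone called 1 gene, with 0 higher and 1 lower. Calls rose to 8 (3 higher, 5 lower) with cyclic loess, 4 (2 and 2) with quantile normalization, 11 (7 and 4) with the 90th percentile as a covariate, 9 (4 and 5) with array weights and 8 (2 and 6) without the pair of arrays of low signal range. An approximation of the methods' procedure (an unmoderated model with each gene at its lowest p) kept probe sets above the table's median in at least 2 of the 12 arrays, in place of the detection p-values that the methods used. It gave 138 of 13846 genes (74 and 64) at an unadjusted p of 0.01, a share near the 0.01 that the threshold gives when no gene differs. With Tukey's test over 4 diets it gave 60 of 13795 (32 and 28). After Benjamini-Hochberg adjustment there were 0 in each. Leaving out 1 mouse gave 0 to 12 calls, 0 to 2 higher and 0 to 11 lower, with 12 reached without fast food batch 2 replicate 2. The cause was not tested.

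Whether replicate numbers pair the mice is not settled by these values. The deviations of mice with the same number correlated at -0.401 to 0.380, with 3 of 6 pairs over 0.1. The correlations were 0.161, 0.0651 and 0.255 in batch 1, and 0.380, -0.245 and -0.401 in batch 2. With the replicate block 0 genes were called, 0 of them higher, and Ang had an adjusted p of 0.0529.

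The genes whose diets do not overlap within both batches numbered 45, and 81 with cyclic loess, 81 with quantile normalization and 70 without a filter. The 90th percentile difference ran from -0.138 to 0.0724 with 1 mouse left out, the beta-actin difference from 0.0732 to 0.144, past an unadjusted exact p of 0.05 only without fast food batch 1 replicate 3 (exact p = 0.02), and the Gapdh difference from 0.0263 to 0.0679. Of 75 named genes followed through 34 alternatives, 74 kept their sign in every alternative that could be computed. Most of these genes were chosen for a small p in these same values, and many also for the same sign in both batches. Kept signs are therefore largely set by that choice and are no separate support. The difference of Hmgcs1 turned to -0.0330 in batch 1 alone and to -0.0121 without the pair of arrays of low signal range. The adjusted p of Ang ranged from 0.00673 to 0.9999 over these alternatives. The number of members below 0 in the lists of fatty acid synthesis and oxidation stayed within 1.5 times under each of 7 alternatives chosen after seeing the data, and the number of cholesterol genes above 0 did not without those arrays.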
